A study of Saccharomyces cerevisiae with 22 samples.

Results

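The regions described here are the ends of the yeast chromosomes other than chromosome 3. Every chromosome was cut into 1-kb bins from position 1, and the 20 bins nearest each end of the other 15 chromosomes were taken, with the right end set at the highest position listed in any library. That gave 600 bins at 30 ends, 4.97% of the 12073 bins of all 16 chromosomes. The choice used positions only. Ends are called by chromosome and side, and bins are counted inward from the end.

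The outermost stretches of yeast chromosomes carry telomeric repeats, Y′ elements with YRF1 helicase genes, and gene families that recur from end to end, such as COS (protein sorting), PAU (seripauperin cell wall proteins), HXT (hexose transporters) and the genes for sugar alcohol use. In wild-type cells the silencing protein Sir4 is drawn to telomeres, and the integrase of the retrotransposon Ty5 binds Sir4, so that Ty5 inserts preferentially into silent chromatin at chromosome ends. The calling-card method removes SIR4 and supplies a piece of Sir4 fused to a transcription factor, so that new Ty5 insertions mark the places where the factor sat.

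The series holds 22 libraries of Ty5 insertions in Saccharomyces cerevisiae, all in strains in which SIR4 was replaced by KanMX and TRP1 by Hyg. 16 multiplex libraries are 8 barcoded Sir4 fusions (Rgm1, Lee1, Sfg1, Kar4, Rpi1, Yrm1, Sef1 and Gal4) in 2 pools, which are the 2 replicates. Single libraries were made with Gcn4, Leu3 and Gal4 fusions on a plasmid, and 1 library without any fusion, the Sir4-free library, is the control. These 20 libraries share a MATa/MATα diploid homozygous for his3∆1, leu2∆0, ura3∆0, sir4::KanMX and trp1::Hyg, and heterozygous for met15∆0 and lys2∆0. The other 2 libraries come from a MATa haploid with met15∆0, ura3∆0, leu2∆0 and his3∆1 and the same replacements of SIR4 and TRP1, in which THI2 was fused to sir4 at its own locus (THI2::sir4), 1 from medium without thiamine (starved) and 1 from complete medium. Growth was in glucose or galactose, with no record in the labels of which library had which sugar. The haploid and its fusion cannot be told apart in any comparison of a Thi2 library with the diploid control.

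A count is 1 distinct insertion site, a chromosome, position and direction, however many reads it had. The libraries held 4755 to 79573 sites, and 111 to 4848 of them lay in the end bins, 19620 of 444512 in all. Single libraries have no replicate, so Fisher's exact tests on them compare libraries and not conditions. Intervals in brackets are at the 95% level (Clopper-Pearson for shares, conditional exact for ratios), and they and the floors set by counts of 0 cover counting error only, since reads from PCR are not independent molecules.

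Without a fusion the ends held somewhat more than their share of distinct sites, and the excess lay in the outer 10 kb. The Sir4-free library had 4848 of its 79573 sites at the ends, a share of 6.09% (5.93 to 6.26) in 4.97% of the bins. Of its reads the ends held 5.23%. Sites with a single read made up 24.2% of its end sites, against 16.9% of its sites elsewhere, so the excess depends on counting sites with few reads. Relative to bins farther than 20 kb from any end, with chromosome 3 left out, sites per bin were 1.82 times as frequent at 0 to 2 kb (1.69 to 1.96), 1.29 times at 2 to 5 kb and 1.51 times at 5 to 10 kb. From 10 to 15 kb the ratio was 1.02, and from 15 to 20 kb it was 0.949. Single ends ranged widely, with 316 sites at 2 left (exact Poisson interval 282 to 353), 308 at 6 right and 298 at 13 right, against 43 at 10 left and 36 at 9 left (25.2 to 49.8). The median end held 163 sites, whereas the median of 544 full interior windows of the same length held 121, and 21 of the 30 ends were above that interior median.

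The Sir4-free sites were unevenly spread within the ends. The 60 fullest bins held 37.6% of them, 62 of the 600 bins held none, and the median bin held 6. The fullest was the terminal bin of 2 left, near YBL113C, with 94 sites. The bins near PHO11, an acid phosphatase gene at 1 right, at IRC7, which encodes a beta-lyase acting on cysteine compounds, at 6 right, and at FET4, the low-affinity iron transporter gene at 13 right, followed with 62, 60 and 58 sites.

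Some stretches of the ends had no site at all in the plasmid and Thi2 libraries, and this touches every comparison of those 5 libraries with the Sir4-free control. Runs of at least 5 consecutive bins empty in all 5 libraries, called unlisted stretches here, took in 106 of the 600 end bins (17.7%) at 12 ends, against 228 of the 11473 other bins (1.99%). By definition none of the 84932 plasmid and Thi2 sites lay in them. At the share of the Sir4-free library, which listed 412 sites there, 439.7 sites would have stood in these stretches. The 16 multiplex libraries listed 935 sites there. Whether these stretches were barred from the listing of those 5 libraries or free of insertions was not tested.

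The ends 9 left and 10 left were unlisted over all 20 bins, while the Sir4-free library had 36 and 43 sites there and the multiplex libraries 70 and 79. At the 7 ends that carry a YRF1 gene, 36 of the 42 bins in the outer 6 kb were unlisted. Those 42 bins held 258 of 79573 Sir4-free sites and 552 of 280007 multiplex sites, against 5 of 84932 sites in the plasmid and Thi2 libraries together. The 36 unlisted bins are empty in those 5 libraries by definition, so this contrast is largely set in advance. Sites in the stretches were also listed more than once in the Sir4-free file more often, 13.1% of them against 7.19% in other end bins and 4.88% in the rest of the genome. Each site was counted once throughout.

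**Figure D1:**
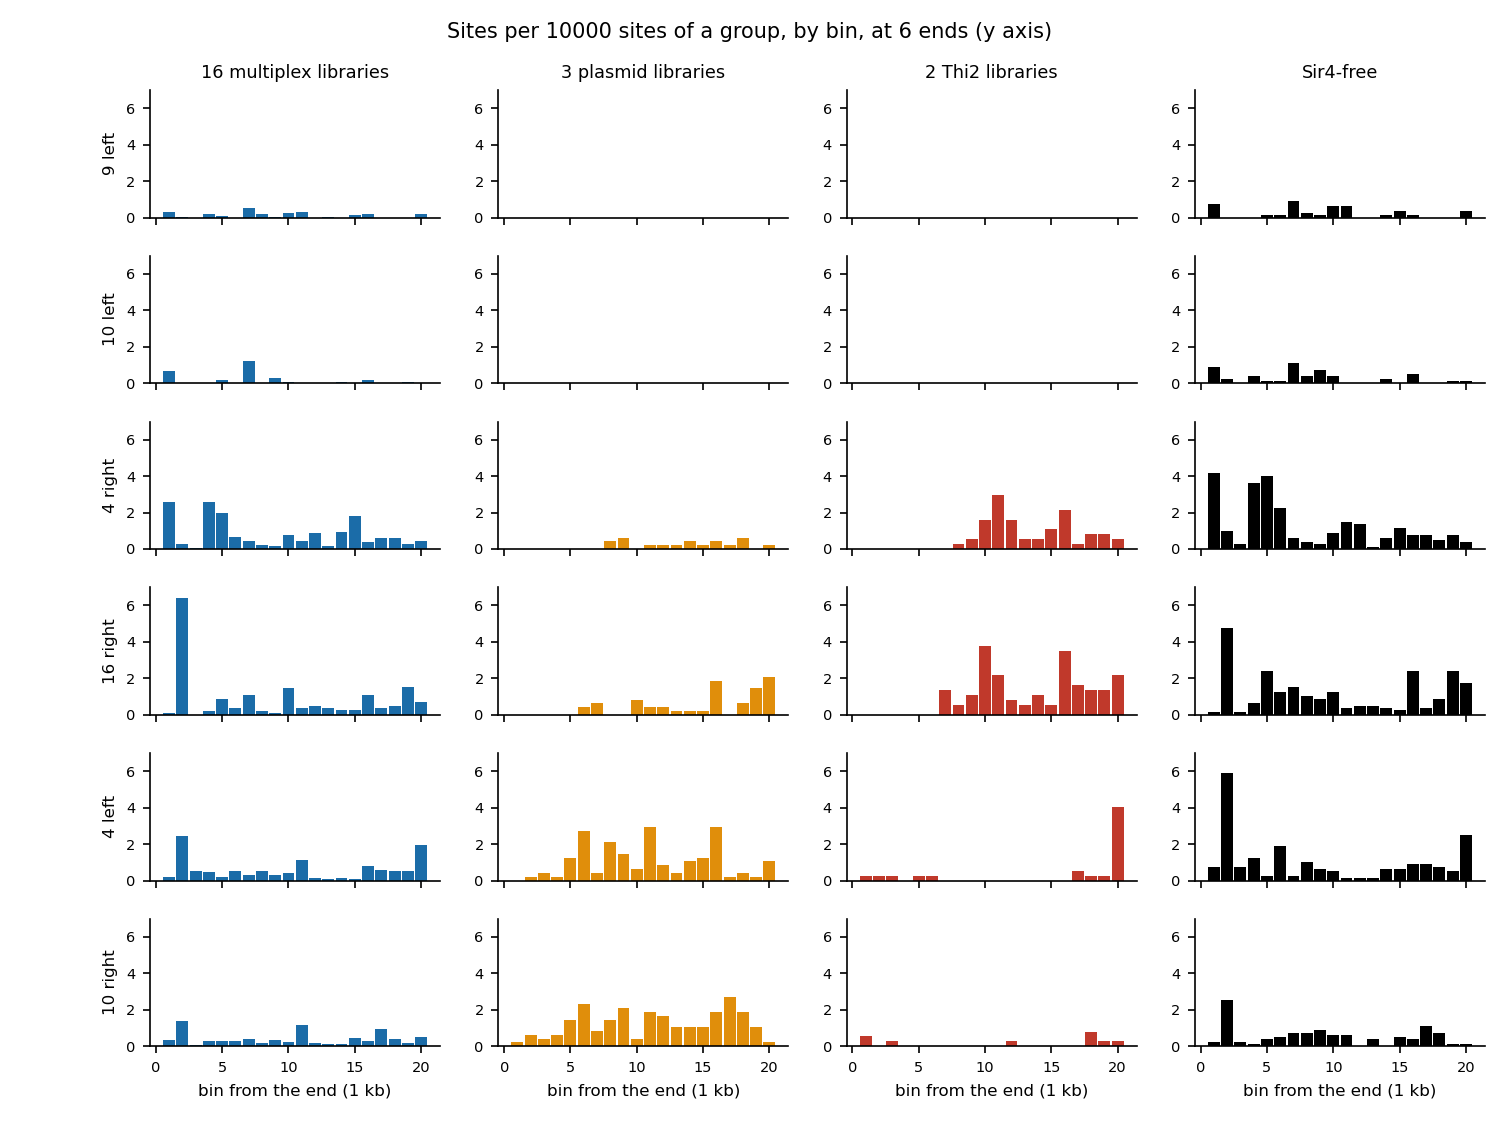
Sites per 10000 sites of a group (y axis) by 1-kb bin counted from the end (x axis), for the 16 multiplex libraries, the 3 plasmid libraries, the 2 Thi2 libraries and the Sir4-free library at 6 ends. The plasmid and Thi2 libraries have no bar at 9 left and 10 left nor in the outermost bins of 4 right and 16 right, and the Thi2 libraries have few at 4 left and 10 right.

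The fusions differed widely in how much of their sites lay at the ends. Among the multiplex libraries Rgm1, a zinc finger protein, had the highest mean share, 5.96% ± 0.126 (SD, n = 2; 5.87% and 6.05%), and Gal4, the activator of the galactose genes, the lowest, 0.943% ± 0.203 (1.09% and 0.799%). Between them, Lee1 averaged 5.69% ± 0.101, Sfg1 5.14% ± 0.439, Kar4 4.89% ± 0.187, Rpi1 3.42% ± 0.314, Yrm1 2.46% ± 0.0469 and Sef1 2.33% ± 0.177 (SD, n = 2 each). The replicates of Rgm1 lay above all 14 other libraries and those of Gal4 below all 14. Neighbours in this order overlapped in their replicates for Sfg1 (4.83% and 5.45%) and Kar4 (4.76% and 5.03%) and for Yrm1 (2.43% and 2.49%) and Sef1 (2.45% and 2.2%), and for no other pair.

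Against the other 7 fusions, which averaged 3.55%, the Rgm1 mean was 2.4 points higher, and Gal4 was 3.33 points lower than the 4.27% of its other 7. In a two-sided exact permutation test of 2 libraries against 14, p was 0.0167 for both, the smallest value the design allows, and 0.0667 after adjustment over the 8 fusions. The other 6 fusions had adjusted p of 0.311 to 0.667 by the same exact permutation test. With 8 fusions and this smallest p, none could have passed the threshold of 0.05 after adjustment, so that none passed is no finding. The difference for Rgm1 rested on the inner bins: within 10 kb of the ends it was -0.0476 points. The 592 end bins not called higher for Rgm1 held 3.42% ± 0.0953 of its sites (SD, n = 2). The called bins were picked by these same counts, so leaving them out lowers the share by construction. The 3.55% of the other fusions keeps all end bins, so the 2 values are not alike.

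Among single libraries the share at the ends was 6.37% for Gcn4, 1.96% for Leu3 and 1.63% for Gal4 on the plasmid, 4.6% for starved Thi2 and 4.99% for Thi2 in complete medium, each against 6.09% in the Sir4-free library. The Gal4 share, 218 of 13383 sites, was 0.267 times the control's (0.232 to 0.306; two-sided Fisher's exact test, adjusted p 1.05e-126). For Leu3, the regulator of leucine synthesis, the ratio was 0.322 (0.279 to 0.37; Fisher's exact test, adjusted p 1.36e-85). Gcn4, the activator of amino acid synthesis, had 1519 of 23833 sites at the ends and a ratio of 1.05 (0.987 to 1.11; Fisher's exact test, adjusted p 0.114).

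With the bins in which each library exceeded the Sir4-free library left out of the whole genome, the ratio was 0.556 for Gal4, 0.478 for Leu3 and 1.11 for Gcn4. These bins were chosen by the values compared, so leaving them out moves each ratio by construction, and no test is given. With the unlisted stretches left out the Gcn4 ratio was 1.13 (Fisher's exact test, adjusted p 2.42e-05). Since those stretches were defined by having no site in the 5 libraries, leaving them out raises each ratio by construction.

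Thi2, the regulator of thiamine genes, had 1390 of 27883 sites at the ends in complete medium, a ratio of 0.818 (0.77 to 0.869; Fisher's exact test, adjusted p 9.01e-12), and 422 of 9171 when starved, a ratio of 0.755 (0.682 to 0.834; adjusted p 4.93e-09). With only sites of at least 5 reads kept, neither Thi2 library was called lower than the control. The ratios were 0.975 in complete medium and 0.948 when starved (both with Fisher adjusted p 0.503). That minimum fell unevenly on the control, whose sites had a median of 4 reads at the ends and 7 elsewhere. For Thi2 the medians were 24 and 25 in complete medium and 17.5 and 10 when starved. The starved library set against the complete one gave a ratio of 0.923 (0.826 to 1.03; two-sided Fisher's exact test between these 2 libraries, p = 0.147). Within 30 kb of the ends the ratio was 0.916 (p = 0.0387 by the same exact test).

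**Figure D2:**
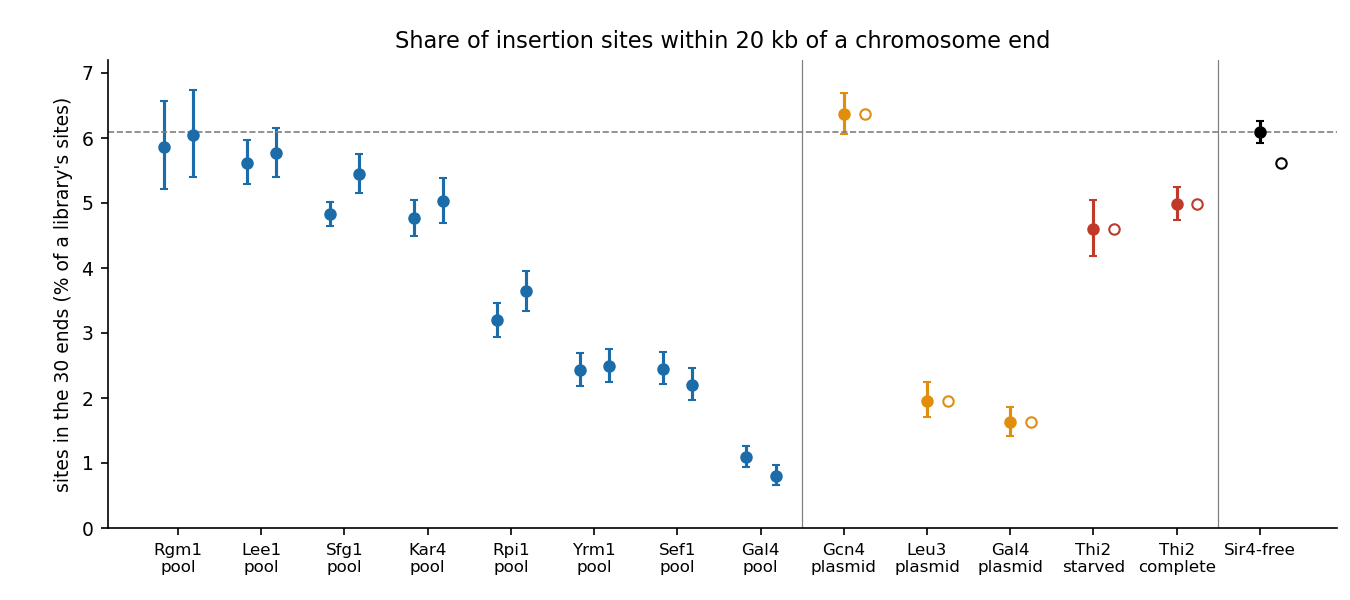
Share of a library's distinct sites in the 600 end bins (y axis, percent) for each fusion and for the Sir4-free library. Filled points are libraries, with 95% binomial intervals, hollow points leave out the unlisted stretches, and the dashed line is the Sir4-free share, 6.09%. Rgm1, Lee1 and Gcn4 stand near that line, and Gal4 and Leu3 lie lowest.

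By distance from the end, Rgm1 was low at the tips and higher inward, where 7 bins held many of its sites. Its sites per bin, relative to bins farther than 20 kb from any end, were 0.683 ± 0.103 at 0 to 2 kb, 0.565 ± 0.0456 at 2 to 5 kb, 0.99 ± 0.235 at 5 to 10 kb, 1.37 ± 0.0389 at 10 to 15 kb and 1.8 ± 0.135 at 15 to 20 kb (SD, n = 2). At 15 to 20 kb 3 bins held 74 of the 113 Rgm1 sites in replicate 1 and 76 of 105 in replicate 2. They lay at HXK1, at DSF1 and next to the DSF1 bin, near DLD3 (chromosome 5, 18001 to 19000). At 10 to 15 kb the bins at SOR2, IRC4, RMD6 and SOR1 held 32 of 80 and 46 of 86. Over the other 147 and 146 bins of these bands the ratios were 0.575 ± 0.132 and 0.749 ± 0.113 (SD, n = 2). The bins left out were those called higher for Rgm1 from the same counts, so leaving them out lowers both ratios by construction. Lee1, a zinc finger protein, was highest at the tips and lowest inward, 1.76 ± 0.0766 at 0 to 2 kb and 0.888 ± 0.006 at 15 to 20 kb, as were Sfg1, a factor of surface pseudohyphal growth, with 1.78 ± 0.22 and 0.814 ± 0.0558, and Kar4, a factor of nuclear fusion in mating, with 1.86 ± 0.104 and 0.707 ± 0.0755. The Sir4-free library, with 1.82 at 0 to 2 kb and 0.949 at 15 to 20 kb, was also highest at the tips and lowest inward.

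Rpi1, a factor of cell wall and Ras signalling, was above 1 only at the tips, 1.26 ± 0.0292 at 0 to 2 kb, and was between 0.491 and 0.752 in the other bands to 20 kb. Yrm1, a regulator of multidrug resistance, and Sef1, a zinc cluster protein, stayed under 1 in every band to 20 kb, with 0.6 ± 0.00142 and 0.726 ± 0.072 at 0 to 2 kb. Both had their lowest value at 2 to 5 kb, 0.295 for Yrm1 and 0.347 for Sef1. Gal4 in the pools lay between 0.119 and 0.254 over the whole 20 kb and was still 0.499 ± 0.00177 at 20 to 40 kb. Gal4 on the plasmid lay between 0.223 and 0.372 within 20 kb and was 0.755 at 20 to 40 kb. Leu3 was at 0.157 to 0.47 within 20 kb and reached 1.09 at 20 to 40 kb.

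The Gcn4 profile peaked at 5 to 10 kb, with 1.77 against 1.51 in the Sir4-free library, and was lower at the tips, 1.33 against 1.82 at 0 to 2 kb. Outside the unlisted stretches its tip value was 1.86, against 2.06 in the Sir4-free library. Starved Thi2 was at 0.993 at 0 to 2 kb, 0.662 at 2 to 5 kb, 1.08 at 5 to 10 kb, 0.821 at 10 to 15 kb and 1.03 at 15 to 20 kb. In complete medium Thi2 was at 1.06, 0.826, 1.15, 1.06 and 0.904 in the same bands, lowest at 2 to 5 kb like the starved library. Outside the unlisted stretches the tip values were 1.39 when starved and 1.48 in complete medium. These profiles are descriptions over 30 ends and were not tested.

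**Figure D3:**
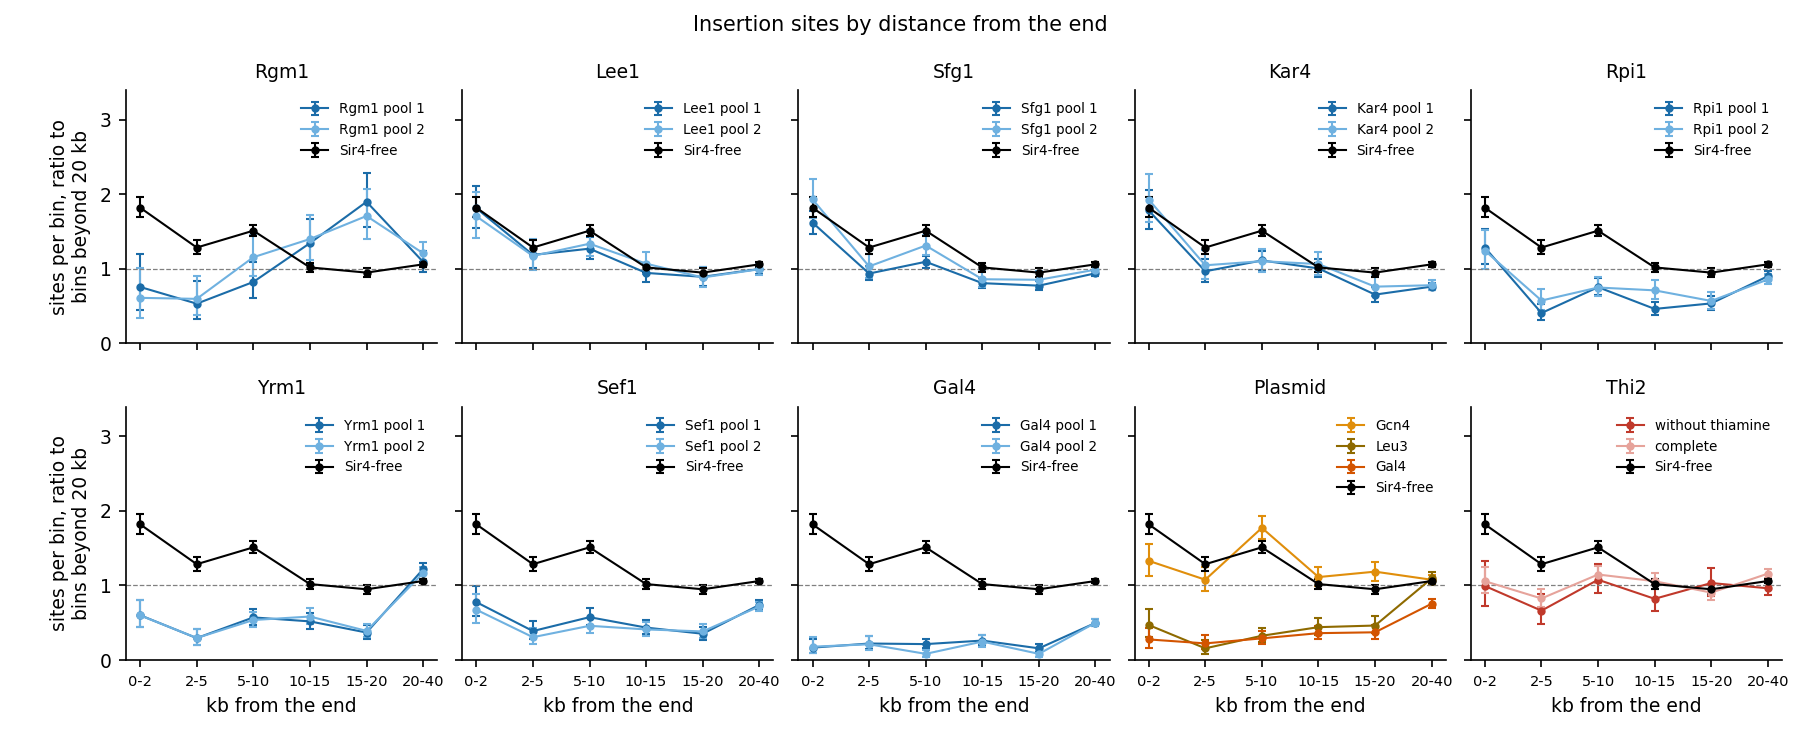
Sites per bin by distance from the end (x axis, kb), as a ratio to the mean of bins farther than 20 kb from any end (y axis), with the Sir4-free library in black in every panel. Points are libraries and bars are 95% intervals. Rgm1 reaches 1.8 at 15 to 20 kb, where 3 bins (at HXK1, at DSF1 and near DLD3) hold most of its sites. Lee1, Sfg1 and Kar4 fall from the tip inward like the Sir4-free library, and Gal4 stays low throughout.

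Taking each 20-kb end as 1 window among all windows of the genome, the multiplex fusions were set against the Sir4-free library in 1 edgeR quasi-likelihood fit with TMM factors, in which the single control library is assumed to vary like the others and is shared by all 8 comparisons. The median log2 fold over all windows lay between -0.357 for Gal4 and 0.0274 for Lee1, and window folds are to be read against it. TMM rescaled the libraries by factors of 0.424 to 1.50, so these folds are not ratios of the plain shares of sites. With library totals in place of TMM factors, an alternative chosen after seeing the data, the median over all windows moved to -2.12 for Gal4, -1.04 for Sef1, -1.02 for Yrm1, -0.75 for Rgm1, -0.43 for Rpi1 and -0.33 for Kar4.

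Rgm1 exceeded the Sir4-free library at 6 of the 30 ends, 20% against 11.3% of all windows. The highest was 6 right, with 62 and 80 Rgm1 sites in the 2 pools against 308 in the far deeper control, a log2 fold of 2.53 ± 0.19 (SE; edgeR quasi-likelihood test, adjusted p 1.93e-36). At 5 left the log2 fold was 2.02 ± 0.23 (35 and 47 sites against 252; edgeR adjusted p 1.53e-17). The ends 4 right (1.44 ± 0.29), 10 right (1.5 ± 0.44), 4 left (1.30 ± 0.33) and 14 right (1.08 ± 0.36) also passed. The same 6 ends passed when the comparison was with the average over the other 7 fusions (8.91% of all windows), with log2 folds of 1.89 to 2.68, and 6 ends passed there without either pool. Against the Sir4-free library 5 ends passed without replicate 1 and 3 without replicate 2. With library totals 3 of them passed, 6 right at a log2 fold of 1.92, 5 left at 1.41 and 4 right at 0.84 (7.28% of all windows), and 9 other ends were lower (19.7% of all windows). The median of all 30 Rgm1 ends against the Sir4-free library was -0.36 on the log2 scale, below the -0.14 over all windows. Against the other 7 fusions 3 ends passed with only sites of at least 5 reads.

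Kar4 exceeded the control at 2 ends, 5 right and 11 right (6.67% against 9.71% of all windows, so no excess of ends). At 5 right Kar4 had 104 and 77 sites against 156, a log2 fold of 1.56 ± 0.20 (SE; edgeR adjusted p 3.63e-13), and at 11 right the fold was 0.81 ± 0.21 (edgeR adjusted p 0.00199). Only 5 right passed without replicate 2, by DESeq2 and with library totals, where its log2 fold was 1.25 and 7 other ends were lower (9.22% of all windows).

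Ends lower than the control were most frequent for Gal4 and Sef1, with 14 of 30 each (12% and 13.6% of all windows), then Yrm1 with 11 (10.7%) and Rpi1 with 8 (3.4%). The median log2 fold over the 30 ends was -1.32 in Gal4, -0.76 in Sef1, -0.56 in Yrm1 and -0.62 in Rpi1, against -0.36, -0.18, -0.09 and -0.05 over all windows. The lowest called end was 11 left for Gal4, at a log2 fold of -4.07 ± 0.85 (SE; edgeR adjusted p 1.14e-05), and for Sef1, at -2.70 ± 0.52 (edgeR adjusted p 1.60e-06). For Yrm1 it was 1 left (-2.89 ± 0.64) and for Rpi1 8 right (-2.42 ± 0.64).

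With library totals the lower ends were 30 of 30 for Gal4 (81.6% of all windows), 26 for Sef1 (63.3%), 25 for Yrm1 (65.7%) and 17 for Rpi1 (17.5%).

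The counts under TMM depended on both pools. Without replicate 1 and without replicate 2 they were 9 and 6 for Gal4, 5 and 6 for Sef1, 5 and 7 for Yrm1, and 3 and 3 for Rpi1, and DESeq2 called 6, 6, 4 and 2. Lee1 and Sfg1 had no end called by edgeR or DESeq2 in either direction. At an unadjusted p under 0.05 edgeR gave 1 lower end for Lee1 and 4 for Sfg1, and none higher. With library totals Sfg1 had 1 lower end (0.485% of all windows) and Lee1 none.

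The end 13 right differed from this in 3 of the 4 fusions. Relative to the TMM scale it was higher than in the control, a direction that turned for Gal4 and Sef1 with library totals, for Gal4 (log2 fold 1.15 ± 0.23, SE; edgeR adjusted p 2.97e-06), Yrm1 (1.05 ± 0.19; adjusted p 7.05e-07) and Sef1 (0.61 ± 0.20; adjusted p 0.0107; not called without replicate 1 or without replicate 2). With library totals the log2 folds were -0.64 for Gal4 (edgeR adjusted p 0.00214), 0.10 for Yrm1 (adjusted p 0.595) and -0.26 for Sef1 (adjusted p 0.219). As plain shares of all sites, 13 right held 0.254% and 0.223% in the Gal4 pools, 0.373% and 0.431% in the Yrm1 pools and 0.327% and 0.3% in the Sef1 pools, against 0.374% in the Sir4-free library. Under TMM it was their 1 higher end, against 21.7%, 18.6% and 22.3% of all windows, so a lower share of ends than of all windows was called higher.

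Each fusion was also compared with the average over the other 7, in the same way. Ends were higher in 9 of 30 cases for Lee1 (8.75% of all windows), 8 for Kar4 (14.6%), 6 for Rgm1 (8.91%), 3 for Sfg1 (10.2%), 2 for Yrm1 (15.9%), and 1 each for Sef1 (17.7%) and Gal4 (19.9%). Rpi1 had none (8.43%), also at an unadjusted p under 0.05 and by DESeq2. Among the higher ends of Lee1 and Kar4, 1 left, 1 right, 2 left, 11 left, 11 right and 15 left were common to both, with edgeR log2 folds of 0.57 to 1.13 for Lee1 and 0.43 to 1.92 for Kar4.

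Ends were lower in 11 of 30 cases for Gal4 (8.27% of all windows), 4 for Rpi1 (12.5%), 4 for Yrm1 (8.91%), 2 for Sef1 (6.97%), 2 for Kar4 (21.4%), 1 for Lee1 (18%) and 1 for Sfg1 (21.9%), and for Rgm1 none (7.29%), also at an unadjusted p under 0.05 and by DESeq2. Without 1 of its replicates Gal4 had 8 and 2 lower ends, Lee1 4 and 2 higher and Kar4 5 and 3 higher. With library totals the higher ends were 28 for Sfg1 (72.8% of all windows), 26 for Lee1 (59.8%), 18 for Kar4 (29%), 6 for Rgm1 (8.91%) and 1 for Yrm1 (11.5%), and the lower ends 29 for Gal4 (73.4%), 9 for Yrm1 (29.2%) and 7 for Sef1 (18.3%), where the median over all windows ran from -1.59 for Gal4 to 0.75 for Sfg1. No end of Kar4, Lee1, Sfg1 or Rpi1 was lower with library totals, and none of Gal4 or Sef1 higher. The sign at 13 right turned there for Gal4, Lee1 and Sfg1. These 8 comparisons share their libraries and are not independent.

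**Figure D4:**
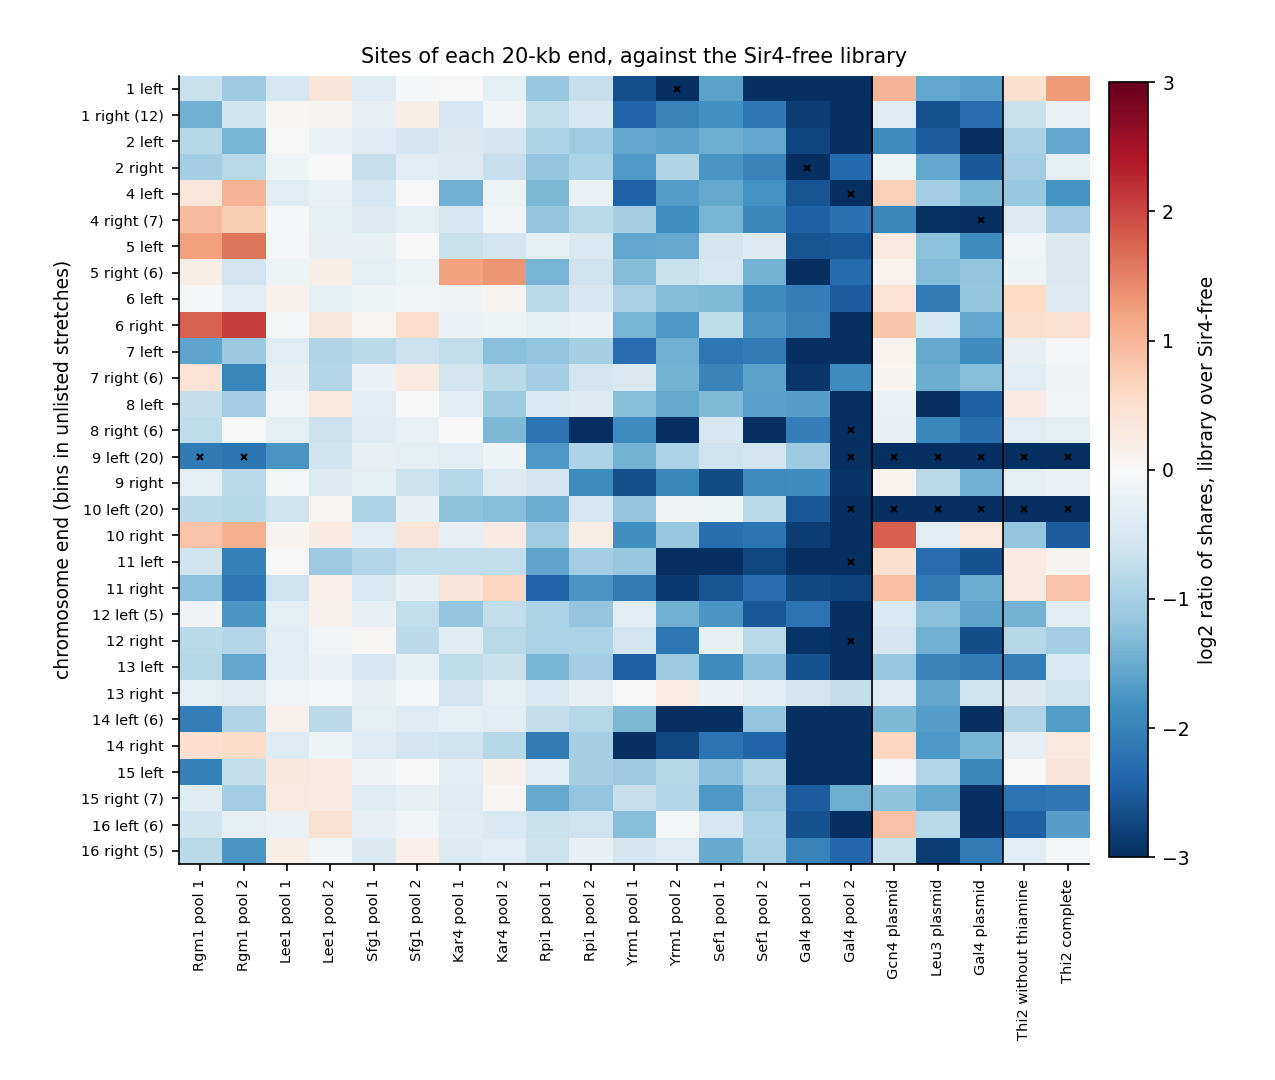
Log2 ratio of the share of sites at each of the 30 ends (rows, with the number of unlisted bins in parentheses) in each library (columns) over the Sir4-free library, cut at 3 in either direction, with a cross where the library has no site. Rgm1 is high at 6 right and 5 left, Kar4 at 5 right and Gcn4 at 10 right, and the Gal4 columns are below 0 and nearest to it at 13 right, with Gal4 on the plasmid at the control's level at 10 right.

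Among single libraries Gal4 on the plasmid was below the Sir4-free library at 29 of 30 ends (56.9% of all windows were lower; two-sided Fisher's exact test, adjusted over all windows). The exception was 10 right, with 18 sites against 88. At 13 right 32 sites stood against 298, a ratio of 0.638 (0.429 to 0.921), the highest of the lower ends, and 4 right had 0 against 202, which at 3 counts allows a share of up to 0.0224%. No end was higher for Gal4 (11% of all windows) or Leu3 (9.4%), also at an unadjusted p under 0.05. Leu3 was lower at 21 ends (12.2% of all windows), with a median log2 fold over the 30 ends of -1.56 against -0.50 over all windows. Outside the unlisted stretches the counts were 26 for Gal4 and 18 for Leu3, and with only sites of at least 5 reads they were 21 and 9.

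Gcn4 had both kinds of end, 7 higher (10.5% of all windows) and 8 lower (12%). The higher ends were 10 right (92 sites against 88; ratio 3.49, 2.58 to 4.73; Fisher's exact test, adjusted p 1.31e-14), 1 left (73 against 120; 2.03), 11 right (98 against 176; 1.86), 16 left (91 against 165; 1.84), 6 right (164 against 308; 1.78), 4 left (79 against 162; 1.63) and 14 right (75 against 160; 1.57). The lowest ratios among lower ends with a site were 4 right (15 against 202; 0.248) and 2 left (25 against 316; 0.264). Outside the unlisted stretches 4 lower ends were left and the 7 higher ones stayed at 7 in number.

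Thi2 in complete medium was higher at 3 ends (2.43% of all windows) and lower at 11 (2.59%; 8 outside the unlisted stretches; 2 with only sites of at least 5 reads). The higher ends were 1 left (102 sites against 120; ratio 2.43, 1.84 to 3.19; Fisher's exact test, adjusted p 2.34e-08), 11 right (112 against 176; 1.82) and 6 right (148 against 308; 1.37). Starved Thi2 was lower at 3 ends (0.972% of all windows): 16 left (3 against 165), 15 right (4 against 182) and 13 left (4 against 165), and at 0 ends with only sites of at least 5 reads. Starved against complete, none of the 28 ends tested differed by Fisher's exact test, where 0.813% of all windows were higher and 0.163% lower, and at an unadjusted p under 0.05 there were 1 higher and 2 lower.

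Many bins of 4 ends had no site in either Thi2 library. Outside the unlisted stretches 14 bins of 10 right, 11 of 4 left, 8 of 15 right and 8 of 16 left held no Thi2 site. In those same bins Gcn4 had 73, 53, 13 and 75 sites, against 76, 49, 93 and 73 in the Sir4-free library, and Leu3 and Gal4 on the plasmid together had 20, 15, 0 and 8. At 15 right the plasmid libraries were therefore thin too. The bins were picked for having no Thi2 site, so their Thi2 counts are no finding. Both 4 left and 10 right carry near-identical copies of the same genes (SOR2 and SOR1, MPH2 and MPH3, HXT15 and HXT16, THI13 and THI11, AAD4 and AAD10, COS7 and COS5), and the sources used here do not say how reads that match both were placed. Without these 4 ends the Gcn4 share was 0.974 times the control's (Fisher's exact test, adjusted p 0.4). Of them, 10 right, 16 left and 4 left were ends called higher for Gcn4, so leaving those out lowers its ratio by construction. Whether the haploid strain lacks these stretches was not tested.

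Bins called higher held 42.6% of the end sites of Rgm1 and 21.7% of those of the Gal4 pools, and between 3.72% (Rpi1) and 18.8% (Sfg1) in the other 6 multiplex fusions. The bins were called from these same counts, so the shares are raised by construction and do not rank the fusions. In the multiplex fit over 5460 bins, with each fusion compared with the average over the other 7, the median log2 fold over all bins ranged from -1.79 for Rgm1 and -1.74 for Gal4, through -0.13 for Sef1, 0.04 for Yrm1, 0.60 for Rpi1, 0.90 for Kar4 and 0.93 for Lee1, to 1.2 for Sfg1. Bin folds are therefore given as log2 differences from that median, with edgeR's SE. The calls and adjusted p values test the fold before the median is taken off, against 0, and not the printed difference. For Rgm1 at ADH6 the fold tested was -4.00, and for Rpi1 at IRC7 it was 1.38. Of the 600 end bins, 319 had the 10 sites needed for the fit.

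Rgm1 was higher in 8 end bins, 2.51% of those tested against 1.37% of all bins, and these 8 held 246 of its 578 end sites. DESeq2 called 9 end bins higher, and with only sites of at least 5 reads edgeR called 4. The bin at HXK1, a hexokinase gene of glucose phosphorylation (chromosome 6, 255001 to 256000, bin 16 of the right end), had 50 and 54 sites in the 2 Rgm1 pools. The other 14 multiplex libraries had 0 to 31 sites there, 106 together, and the Sir4-free library 29. As shares these were 1.07% ± 0.0285 for Rgm1 (SD, n = 2), 0.0354% on average in the other multiplex libraries and 0.0364% in the Sir4-free library. Both Rgm1 values lay far above all others, 5.94 ± 0.26 above the median bin on the log2 scale (edgeR adjusted p 1.57e-53).

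Of the other 7 Rgm1 bins, 4 lay at genes of polyol dehydrogenases, a grouping made after the values were seen. The remaining 3 lay at IRC4, near DLD3 and at RMD6. SOR2 and SOR1 encode sorbitol dehydrogenases and DSF1 and MAN2 mannitol dehydrogenases, and each lies beside an HXT transporter gene of the set HXT13, HXT15, HXT16 and HXT17. The DSF1 bin (chromosome 5, 19001 to 20000, bin 20 of the left end) had 16 and 14 Rgm1 sites, against 7 in the other 14 libraries together and 5 in the Sir4-free library. The MAN2 bin (chromosome 14, 776001 to 777000, bin 8 of the right end) had 7 and 11 sites against 13 in the other 14 and 6 in the Sir4-free library.

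Both groups of libraries were apart at DSF1, where no other multiplex library had more than 2 sites, and at MAN2, where none had more than 4. The SOR1 bin (chromosome 10, 735001 to 736000, bin 11 of the right end) had 7 and 10 Rgm1 sites against 16 and 5. The SOR2 bin (chromosome 4, 10001 to 11000, bin 11 of the left end) had 5 and 16 against 10 and 1. Log2 differences from the median bin were 6.91 ± 0.72 at MAN2, 6.77 ± 0.65 at SOR2 and 6.54 ± 0.72 at SOR1 (edgeR adjusted p from 2.35e-12 to 5.35e-09). At DSF1 the difference was 8.49 ± 0.65, with no p given because the bin entered the fit only through Rgm1. At SOR2 the call was lost without replicate 2 (edgeR adjusted p 0.0559).

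These 4 bins together held 35 and 51 Rgm1 sites, against 46 in the 14 other multiplex libraries with 270306 sites. They held 85% of the Rgm1 sites at 10 right, 66.7% at 14 right, 65.6% at 4 left and 36.6% at 5 left, shares raised by construction since the bins were called from these counts. SOR1 and SOR2, and DSF1 and MAN2, are near-identical pairs, so which member of a pair an insertion belongs to is uncertain. The 3 bins outside this grouping were at IRC4 (chromosome 4, 1517001 to 1518000; 16 and 13 sites against 21 in the other 14 libraries; 6.95 ± 0.57), next to the DSF1 bin near DLD3 (8 and 8 against 17; 6.12 ± 0.70) and at RMD6 (4 and 7 against 61; 3.93 ± 0.64).

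Kar4 was higher in 16 end bins, 5.02% against 4.63% of all bins, and DESeq2 called 5, so the number is that of the background. One bin stood out by size. The YER187W bin (chromosome 5, 566001 to 567000, bin 11 of the right end) had 60 and 52 Kar4 sites against 0 to 8 in the other 14 libraries and 7 in the Sir4-free library. The shares were 0.296% ± 0.0518 in Kar4 (SD, n = 2), 0.0125% on average in the others and 0.0088% in the Sir4-free library, 3.68 ± 0.30 above the median bin (edgeR adjusted p 9.84e-50).

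The Kar4 sites in that bin were close together, with the quartiles of the positions 149.5 bp apart in replicate 1 and 67.2 bp apart in replicate 2, around medians of 566807 and 566806. At 11 right 2 neighbouring bins near GEX2, a glutathione exchanger gene, had 31 and 18 sites in bin 2 (1.87 ± 0.36) and 11 and 11 in bin 3 (1.80 ± 0.57). Kar4's shares there were 0.125% and 0.059% against 0.0327% and 0.0427% in the Sir4-free library.

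The bin at ADH6, an alcohol dehydrogenase gene (chromosome 13, 912001 to 913000, bin 13 of the right end), was shared by several fusions. Gal4 had 35 and 27 of its 41 and 31 sites at 13 right there, Yrm1 27 and 34 of 54 and 64, and Sef1 22 and 18 of 49 and 43. As shares these were 0.206% ± 0.0161, 0.208% ± 0.03 and 0.136% ± 0.015 (SD, n = 2 each), against 0.054% in the Sir4-free library. In share all 6 libraries lay above the other multiplex libraries, and Rgm1 was lowest with 1 and 0 sites.

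Against the other 7 the ADH6 bin was higher for Gal4 (4.0 ± 0.30 above the median bin; edgeR adjusted p 1.15e-12), Yrm1 (1.89 ± 0.30; adjusted p 5.32e-09) and Sef1 (1.24 ± 0.34; adjusted p 0.0283, lost in DESeq2, with RLE factors and without replicate 1 or replicate 2), and lower for Rgm1 (-2.21 ± 0.85; adjusted p 2.21e-04, lost without replicate 2, 0.149). Gal4 on the plasmid had 23 sites there against 43 in the control, a ratio of 3.18 (1.83 to 5.4; Fisher's exact test, adjusted p 0.00117). That was its 1 higher end bin (0.284% against 2.67% of all bins). The quartiles of its positions lay 64 bp apart, against 201.5 bp in the Sir4-free library.

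The other fusions had few bins of size. Yrm1 was higher in 6 end bins (1.88% against 4.03%), after ADH6 at SNO4 and ERR3 (10 and 13 sites; 2.17 ± 0.47) and at the arsenic resistance genes ARR1, ARR2 and ARR3 (5 and 8 sites; 2.90 ± 0.70). Sef1 was higher in 2 (0.627% against 3.66%), ADH6 and DLD3, neither called with RLE factors, Rpi1 in 1, at IRC7 (0.313% against 3.02%; 24 and 17 sites; 0.78 ± 0.33), and Gal4 in 1 (0.313% against 3.61%). Lee1 was higher in 5 (1.57% against 0.495%), of which 0 were still called without replicate 1 and 1 without replicate 2. Sfg1 was higher in 32 (10% against 8.92%), of which 4 were still called without replicate 1 and 11 without replicate 2.

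Lower end bins were few. Rgm1 had 1, ADH6 (0.313% against 0.897% of all bins). None was called for Kar4 (0.806% of all bins), Lee1 (0.549%), Rpi1 (0.22%), Sef1 (0.0183%), Sfg1 (0.897%) or Yrm1 (0.458%) by edgeR or DESeq2, and at an unadjusted p under 0.05 edgeR gave 1 for Kar4, 3 each for Sef1 and Yrm1 and 0 for the others. Gal4 was lower in 1 end bin (0.313% against 0.147% of all bins; DESeq2 called 0), the terminal bin of 2 left near YBL113C, with 0 and 1 sites. That bin, the fullest of the Sir4-free library with 94 sites, was also lower than the control for Gal4 on the plasmid with 2 sites (0.852% of end bins were lower against 0.179% of all bins) and for Leu3 with 0 (0.287% against 0.0356%). For Thi2 in complete medium it held 7 sites (1.55% against 0.104%). In the single libraries no end bin was called lower when only sites of at least 5 reads were counted. Leu3 had no higher end bin (1.89% of all bins), also at an unadjusted p under 0.05.

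**Figure D5:**
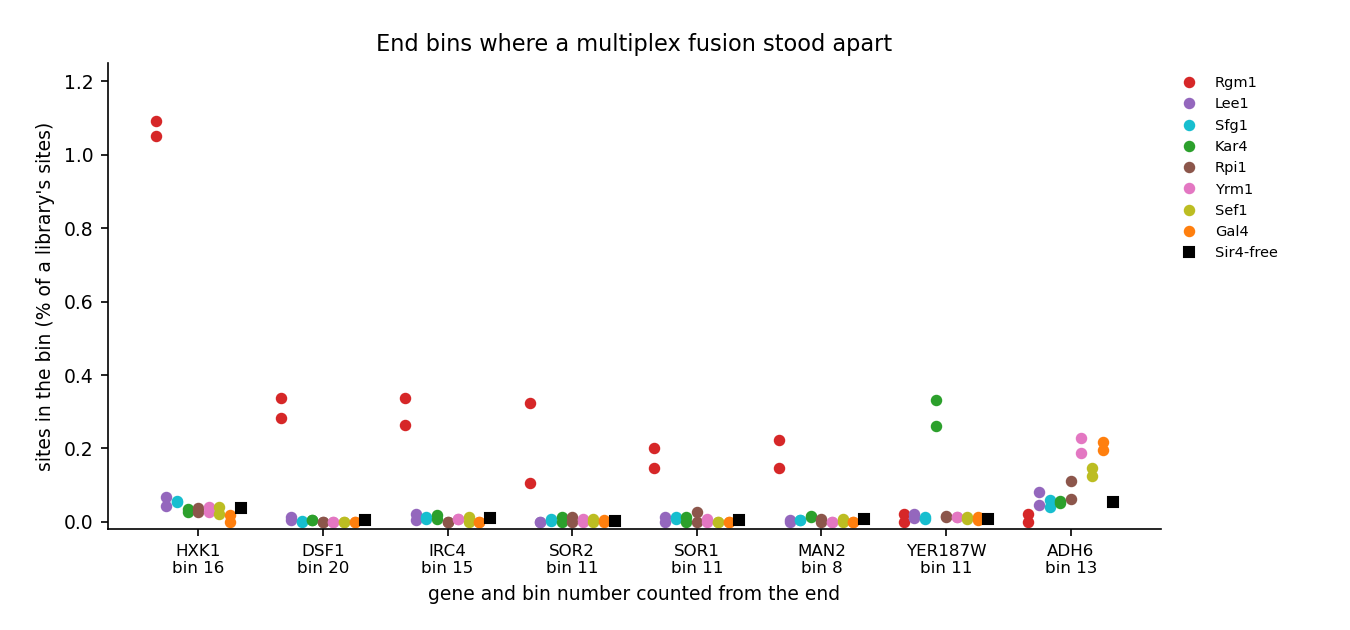
Share of a library's sites in 8 end bins (y axis, percent), 1 point per library, with the Sir4-free library as a square. The Rgm1 libraries stand alone at HXK1, DSF1, IRC4, SOR2, SOR1 and MAN2 (1.07% ± 0.0285 at HXK1), the Kar4 libraries at YER187W, and at ADH6 the Yrm1, Gal4 and Sef1 libraries lie above the rest.

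Gcn4 on the plasmid was higher than the Sir4-free library in 15 end bins (3.82% against 2.22% of all bins) and lower in 9 (2.29% against 0.244%; 5 outside the unlisted stretches; 0 with sites of at least 5 reads only). The strongest was the bin at DLD3, a D-lactate dehydrogenase gene (chromosome 5, 16001 to 17000), with 41 sites against 27, a ratio of 5.07 (3.04 to 8.57; Fisher's exact test, adjusted p 7.92e-09). At IRC7 (chromosome 6, 263001 to 264000) 60 sites stood against 60, a ratio of 3.34 (2.3 to 4.86; adjusted p 1.78e-08), and the quartiles of the Gcn4 positions lay 156.2 bp apart against 510.8 bp in the control. The bin of VBA5, a membrane transporter gene, and GEX2 at 11 right had 21 against 15 (4.67, 2.3 to 9.75).

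Some of its bins lie at genes with close copies, where placement is uncertain: PAU22 at 16 left (21 against 9; 7.79), ERR2 and HSP32 next to it (23 against 20; 3.84), SOR2 at 4 left (10 against 1; 33.4, 4.75 to 1450) and MPH3, a maltose transporter gene, at 10 right (10 against 4; 8.35). With 1 and 4 control sites, the SOR2 and MPH3 bins met the minimum of 5 sites only through their Gcn4 sites, so these 2 calls are no support. The lower bins of Gcn4 included COX14, a gene of cytochrome oxidase assembly at 13 left, with 0 sites against 31.

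Thi2 in complete medium was higher in 3 end bins (0.773% against 0.119% of all bins): at YKR104W on 11 right (19 sites against 7; ratio 7.75, 3.12 to 21.8; Fisher's exact test, adjusted p 9.00e-04), near AIF1, a gene of apoptosis, on 14 right (13 against 5; 7.42) and at YML131W on 13 left (15 against 8; 5.35). The last 2 did not pass with only sites of at least 5 reads (Fisher adjusted p 0.0637 and 0.283). Starved Thi2 was higher in 3 (0.836% against 0.396%), at ARN2, a siderophore iron transporter gene on 8 left (10 against 12; 7.23, 2.8 to 18.3), at AGP3, an amino acid permease gene on 6 left (5 against 1), and at IRC7 (20 against 60; 2.89). With 1 control site the AGP3 bin met the minimum of 5 sites only through its starved sites, so its call is no support. None of the 144 end bins tested differed between the starved and the complete library by Fisher's exact test (0.404% of all bins were higher and 0.0% lower; at an unadjusted p under 0.05, 6 and 2). IRC7 had 20 starved sites against 22, a ratio of 2.76 (adjusted p 0.246), and ARN2 10 against 7 (4.34; adjusted p 0.313).

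By gene family the calls at the ends were few, apart from the COS genes for Sfg1, which were called against the other fusions and not against the Sir4-free library. A gene was counted where any bin within 500 bp of its start (900 bp on chromosome 11) was called, which can be the bin next to the one that holds the start. Over all genes tested in the genome this rule gave 3.13% higher for Gcn4, 0.645% for Lee1, 5.51% for Kar4, 13% for Sfg1 and 0.512% for starved Thi2. Of 18 PAU genes in the ends, 17 could be tested for Gcn4 and PAU6, PAU16 and PAU22 counted as higher, each through the neighbouring bin and not the bin of its start. Of 14 PAU genes tested in the multiplex fit, PAU16 counted for Lee1, also through a neighbouring bin. For Sfg1 PAU9 counted, in a bin that met the minimum of 10 sites only through Sfg1, and PAU21 through a neighbouring bin. Of 13 sugar transport and maltose genes, 10 were tested for Gcn4, and HXT16 and MPH3 counted as higher, MPH3 through the neighbouring bin. The bins behind HXT16 (5 sites against 0), MPH3 (10 against 4) and PAU16 (5 against 0) met the minimum of 5 sites only through Gcn4, so these calls are no support. Of 11 COS genes, COS7 was lower for Gal4 on the plasmid, Gcn4 and Thi2 in complete medium (0, 1 and 1 sites against 47), where 0.234%, 0.189% and 0.0671% of all genes were lower. COS3 was higher for Kar4 and COS8 for Lee1. For Sfg1 6 of the 11 COS genes counted as higher, against 13% of all genes, COS2 and COS5 only through a neighbouring bin. Sfg1 calls were made against a log2 fold of 0, while the median over all bins was 1.2 for Sfg1. DESeq2 called 2 end bins higher for Sfg1, where edgeR called 32. The bins that hold the starts of COS7, COS8 and COS10 had 0.0438% ± 0.0208, 0.0334% ± 0.0164 and 0.0407% ± 0.00609 of Sfg1 sites (SD, n = 2 each). The Sir4-free library had 0.0591%, 0.0302% and 0.0352% there, and Sfg1 bins were not tested against it. Of the 2 iron genes at the ends ARN2 was higher for starved Thi2. Of the 8 YRF1 helicase genes, 7 were tested and YRF1-6 alone was higher, for Kar4. The 8 genes of thiamine and vitamin B6 synthesis at the ends (THI5, THI11, THI12, THI13, SNZ2, SNZ3, SNO2 and SNO3) gave no call in any comparison, with at most 3 of them in bins with enough sites for a test. The 5 aryl alcohol dehydrogenase genes at the ends gave none either, the 2 acid phosphatase genes could not be tested, and none of the 5 flocculin genes has its start in the end bins. Most of these genes have close copies at other ends, so their placement is uncertain.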

How the data were processed

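Per the labels and the deposited files, each library is a list of chromosome, position, direction and counts, the authors' raw read numbers at each Ty5 insertion site, obtained by inverse PCR on circularised restriction digests (TaqI, HpaII and Hinp1I) of genomic DNA and Illumina sequencing. Aligner, genome build, read filters and the placement of repeated reads were not given in the sources used here, so positions stand as deposited. Repeats of a site were summed and each distinct site counted once (4019 sites are listed more than once in the Sir4-free file). Reads per library were 74066 to 4539300.

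Single libraries were compared by Fisher's exact test (two-sided; bins with at least 5 sites), multiplex libraries by edgeR 4.0.16 (glmQLFit, glmQLFTest, TMM; limma 3.58.1, R 4.3.3; bins and windows with at least 10 sites), both over the whole genome with Benjamini-Hochberg adjustment and a threshold of 0.05, and shares by an exact permutation test. A window is 20 bins counted inward from an end. DESeq2 1.42.0, RLE factors, other minima, distances and bin positions, a replicate block and leaving out each replicate were alternatives, and leaving out unlisted stretches or the 4 ends thin in Thi2, and library totals without TMM factors, were chosen after seeing the data. Everything else ran in scipy 1.17.1 and matplotlib 3.10.9, with pandas 2.3.3 and numpy 2.4.6, under Python 3.11.15. The tests were tried on simulated data.

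Named are every end past the threshold by comparison (those beyond the strongest by count), and up to 10 called end bins with the smallest p per comparison and direction, of which the text prints a selection. Bins take the names of genes starting within 500 bp (900 bp on chromosome 11, where the annotation is displaced), otherwise of the closest gene. Gene coordinates came from the R64 RefSeq annotation, whose build may differ from that of the deposited positions. They were used to name bins and to place genes, and not to set the bins, ends or counts. The regions and gene lists were chosen with earlier results of these data known. Nothing says that the 2 pools came from separate cultures, so p values measure the spread between these libraries. No sequence is shown, since no genome was used here.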

Additional observations from a re-analysis of the deposited data

How the results depend on the processing

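The Gcn4 ratio of shares, 1.05, was not called. It was called higher with sites of at least 5 reads (1.22), within 30 kb (1.07) and without the outermost 5 bins (1.16). It was also called higher without bins higher than the control (1.11) and without unlisted stretches of at least 5 (1.13) or 3 bins (1.14), all moved by construction. It was below 1 and not called within 10 kb (0.972) and without the 4 ends thin in Thi2 (0.974, moved by construction). With sites of at least 5 reads the Thi2 ratios were 0.975 (complete) and 0.948 (starved), not called. Rgm1 against the other fusions was -0.0476 points within 10 kb. Starved against complete Thi2 was called within 30 kb (0.916).

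Counts of called end bins and ends, summed over their comparisons, moved with library totals, DESeq2 and sites of at least 5 reads. Multiplex bins higher numbered 71, 24 with DESeq2, 34 with at least 5 reads and 43 to 71 when 1 replicate was left out (lowest without Sfg1 replicate 1). Multiplex bins lower numbered 2, 5 with RLE factors, 0 with DESeq2 and 1 to 2 with 1 replicate left out. With library totals without TMM factors 122 multiplex bins were higher and 12 lower, 79 ends higher and 45 lower than the other fusions, and 4 ends higher and 115 lower than the Sir4-free library (11 and 47 with TMM). Ends higher than the other fusions numbered 30, 17 with DESeq2 and 16 with at least 5 reads. Ends lower numbered 25, 10, 7 and 16 to 25 with 1 replicate left out (lowest without Gal4 replicate 2). Ends lower than the Sir4-free library numbered 47 and 18 with DESeq2. For single libraries, lower bins numbered 19 and 0 with at least 5 reads, and lower ends 72 and 35. Starved against complete, higher bins numbered 0 and 1. The cause was not tested, except that filters and left-out replicates leave fewer sites or libraries.

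The replicate numbers are those of the pools. Same-numbered libraries of different fusions did not deviate together over 5460 bins (28 pairs, r from -0.0069 to 0.0532), so the numbers were not taken to pair the samples. With the replicate block 60 bins were higher and 2 lower, and 30 ends were higher and 26 lower than the other fusions. No block could be fitted against the Sir4-free library, which has no pool. Of 81 named bins called, 24 kept the call in every alternative run and none changed sign. Gal4 pools had 111 to 175 end sites, so end bins with few sites could not be called lower there.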

Other observations

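The direction of insertion was not balanced at the ends. In the 16 multiplex libraries together 44.4% of the end sites lay on the plus strand (43.4 to 45.3), against 49.1% of the sites in the rest of the genome, and in the Sir4-free library 44% (42.6 to 45.4) against 49.3%. The left and the right ends had the same sign, 45.1% and 43.8% in the multiplex libraries. The plasmid libraries had 49.4% at the ends (47.2 to 51.7) and the Thi2 libraries 53% (50.7 to 55.4). These intervals cover counting error only.

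Of 159 end bins with at least 40 sites in all libraries together, the 8 most one-sided all held minus-strand sites. At 15 right, bin 5, near YRF1-8, 0 of 119 sites were on the plus strand, and at 16 right, bin 2, near YPR204W, 1 of 218. The terminal bin of 16 left, near YRF1-7, had 0 of 54, bin 7 of 10 left, near YJL225C, 0 of 43, and bin 11 of 15 right, near ERR1, 0 of 44. These are genes with near-identical copies at other ends, and the sources used here do not say how reads with several matches were placed. In the unlisted stretches 36.5% of the multiplex sites (33.4 to 39.6) and 42.7% of the Sir4-free sites (37.9 to 47.7) were on the plus strand.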
